A study of Mus musculus with 24 samples.

Results

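Smarcd1, Pou6f1, Mettl7a1, Mettl7a2, Mettl7a3 and Dazap2, which lie close to Krt8 on mouse chromosome 15, are described here together with Gm47021. These 7 genes were chosen by their read counts in these same libraries, because the counts differed between genotypes or because reads can be shared with a gene whose counts did, so their genotype differences are given as a description with no test, and a count of listed genes past a threshold between genotypes is printed only to stand beside the share of all genes. The list holds 7 of the 55421 mouse genes in the count table and 7 of the 18046 genes that passed the filter on low counts. The name of the list goes against the data in 2 ways. Gm47021 is on chromosome 13 and not near Krt8, and in the mean over the days Dazap2 differed by only -0.08 (SE 0.06) and Mettl7a1 by -0.13 (SE 0.28) on the log2 scale.

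Alveolar epithelial type 2 cells (AEC2s) were isolated from wild-type (Krt8+/+) mice and from mice with a global knockout of Krt8 (Krt8-/-), in 3 isolations performed on different dates. RNA-Seq covered the fresh isolate (day 0) as well as 2D cultures harvested at day 1, day 3 or day 7, so that 8 groups of genotype and day held 3 isolations each, 24 libraries in all. No treatment other than culture was named. For strain, age, sex and the number of mice per isolation, nothing is given in the sources used here. The knockout was carried by every cell of the mouse, so the cells were without Krt8 before they were isolated.

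AEC2s make pulmonary surfactant and are progenitors of the flat type 1 cells (AEC1s) that line the alveolus. In 2D culture they lose surfactant gene expression and take on features of a keratin-rich transitional state and then of AEC1s. Krt8 encodes a type II keratin of simple epithelia, and it is one of the genes that mark the transitional state. Smarcd1 encodes BAF60A, an accessory subunit of the BAF (SWI/SNF) complexes, which move nucleosomes with energy from ATP. Pou6f1 encodes a transcription factor with a POU domain and a homeodomain. The Mettl7a genes encode methyltransferase-like proteins of the endoplasmic reticulum and lipid droplets. Dazap2 encodes a small proline-rich protein first found through its binding to DAZ proteins. Gm47021 is annotated as a processed pseudogene, an intronless copy of the type made by reverse transcription of an mRNA.

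On GRCm38, Krt8 is at chr15:101996698-102004482 on the minus strand, and all 6 linked genes lie on its centromeric side. Smarcd1 (ENSMUSG00000023018) is the farthest, at chr15:99702129-99713991 on the plus strand, 2.28 Mb from Krt8. Mettl7a1 (ENSMUSG00000054619) is at chr15:100304140-100328662, Mettl7a3 (ENSMUSG00000058057) at chr15:100334929-100340375 and Mettl7a2 (ENSMUSG00000056487) at chr15:100353200-100361840, a cluster on the plus strand 1.63 to 1.67 Mb from Krt8. Pou6f1 (ENSMUSG00000009739), at chr15:100575318-100599984 on the minus strand, and Dazap2 (ENSMUSG00000000346), at chr15:100615349-100620761 on the plus strand, are 1.40 and 1.38 Mb away. Gm47021 (ENSMUSG00000113036) is at chr13:12259793-12260270 on the minus strand. All but Gm47021 are annotated as protein-coding.

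The Mettl7a genes are near copies of each other, and the first 90 coding bases of each are shown because they let a reader see how few bases tell a read of one from a read of another. Capitals mark the bases that differ from Mettl7a1. There are 7 in Mettl7a2 and 9 in Mettl7a3.
Mettl7a1: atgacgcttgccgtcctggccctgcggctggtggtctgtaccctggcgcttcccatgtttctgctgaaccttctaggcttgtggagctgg
Mettl7a2: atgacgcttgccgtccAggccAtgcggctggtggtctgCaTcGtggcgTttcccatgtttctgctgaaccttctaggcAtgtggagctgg
Mettl7a3: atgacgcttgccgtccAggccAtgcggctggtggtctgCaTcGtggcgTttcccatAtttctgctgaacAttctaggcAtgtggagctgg
Over the whole coding sequence of 732 bases, Mettl7a2 was 94.7% and Mettl7a3 94.3% identical to Mettl7a1, and Mettl7a3 was 99% identical to Mettl7a2. Of all stretches of 50 bases in the annotated transcripts, 17.2% of those of Mettl7a1, 63.2% of those of Mettl7a2 and 46.5% of those of Mettl7a3 also occurred in another gene. For Mettl7a2 and Mettl7a3 the gene that shared the most was the other of the pair. Methig1, an annotated gene that overlaps Mettl7a2, shared 25.5% of those of Mettl7a2. These sequences come from GENCODE transcripts on GRCm38.

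Gm47021 stands to Dazap2 as a copy to its parent. The window of 90 coding bases in which the pair differed the most (Dazap2 coding bases 239 to 328) is shown for the same reason, and capitals mark the 6 bases of Gm47021 that differ.
Dazap2: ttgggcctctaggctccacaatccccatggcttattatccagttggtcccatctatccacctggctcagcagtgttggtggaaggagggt
Gm47021: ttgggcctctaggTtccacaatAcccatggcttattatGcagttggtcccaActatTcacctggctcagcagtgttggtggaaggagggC
Of 467 aligned columns, 452 were identical (96.8%). Dazap2 was the only gene with which Gm47021 shared stretches of 50 bases, and it shared 42% of its own, while this was 6.22% of those of Dazap2. Smarcd1 shared none, and Pou6f1 shared 0.0692%. The sources used here do not say how reads that match several genes were assigned, so the counts of Mettl7a1, Mettl7a2, Mettl7a3, Gm47021 and, to a lesser degree, Dazap2 are uncertain as counts of single genes.

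Total counts ranged from 10184439 to 19483386 per library. In Krt8-/- libraries Krt8 was at 21.2 to 47.4 CPM (counts per 1000000, scaled here with TMM factors), against 485 to 5092 CPM in Krt8+/+ libraries, so the targeted gene followed the labels in all 24 libraries. AEC2 markers summed to 209743 to 290889 CPM on day 0 and to 134 to 199 CPM on day 7. Over all libraries, the sums were 601 to 3524 CPM for AEC1, 823 to 15423 CPM for transitional, 89.4 to 2977 CPM for fibroblast, 7.80 to 179 CPM for macrophage, 0.858 to 29.6 CPM for endothelial and 0 to 9.24 CPM for lymphocyte markers. Of all these markers, Aqp5 of the AEC1 list and Krt8 of the transitional list passed 0.05 between genotypes in the mean over the days. On day 0 the genotypes did not overlap in the sum of the 3 club and ciliated cell markers. Krt8-/- libraries had 11742 to 17022 CPM, Krt8+/+ libraries 4144 to 9667 CPM. The sums of the AEC1 and transitional lists, which hold Aqp5 and Krt8, were apart on that day too. For AEC1 markers the Krt8-/- range was 3190 to 3524 CPM, against 2368 to 2986 CPM in wild-type cells. For transitional markers it was 823 to 892 CPM, against 1083 to 1250 CPM. Krt8 itself was at 21.2 to 36.4 CPM in these Krt8-/- libraries and at 485 to 552 CPM in the Krt8+/+ libraries. That gap was larger than the gap between the transitional sums. Aqp5 itself was at 1117 to 1226 CPM in Krt8-/- and at 550 to 854 CPM in Krt8+/+ libraries. The part of these sums in the day 0 differences below was not tested. In isolation 1 the genotypes also differed in sex-linked RNA. Xist ranged from 62.4 to 79.5 CPM in its Krt8+/+ libraries, whereas the range was 5.92 to 12 CPM in its Krt8-/- libraries. The sum of 4 Y-linked genes was 0 to 0.441 CPM in the former and 173 to 191 CPM in the latter. The genotypes were alike in this respect in isolations 2 and 3, so values without isolation 1 are given beside the genotype differences. The series' design text describes 3 independent repeats of the isolation. The p values and standard errors of the fit measure the spread between libraries of the same group, pooled over the 8 groups. In the mean over the days they count the 4 days of an isolation as separate, so they do not measure the spread between 3 isolations alone.

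Smarcd1 was lower in Krt8-/- AECs on every day, by a factor of similar size. In Krt8+/+ cells its level in the 3 isolations was 27.8, 21.1 and 22.5 CPM on day 0, 22.5, 15.9 and 16.0 CPM on day 1, 18.8, 23.3 and 21.3 CPM on day 3, and 17.2, 17.3 and 18.3 CPM on day 7. In Krt8-/- cells it was 4.61, 3.04 and 2.09 CPM on day 0, 2.15, 3.96 and 3.66 CPM on day 1, 2.19, 2.41 and 2.39 CPM on day 3, and 3.43, 2.18 and 1.72 CPM on day 7. The highest of the 12 Krt8-/- libraries (4.61 CPM) was below the lowest of the 12 Krt8+/+ libraries (15.9 CPM), so the genotypes did not overlap on any day. These levels rest on 24 to 64 counts per Krt8-/- library and 190 to 438 counts per Krt8+/+ library.

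The mean of the Krt8-/- libraries was 13.6%, 18%, 11% and 13.9% of that of the Krt8+/+ libraries on days 0, 1, 3 and 7. As log2 differences of Krt8-/- minus Krt8+/+ these were -2.87 (SE 0.29), -2.47 (SE 0.28), -3.17 (SE 0.29) and -2.84 (SE 0.29), n = 3 isolations per group. The mean over the 4 days was -2.84 (SE 0.14). Within isolations 1, 2 and 3 it was -2.79, -2.70 and -2.95, and without isolation 1 the fit gave -2.89.

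Culture did not change Smarcd1 past the threshold in either genotype, and this comparison was not used to choose the gene. In Krt8+/+ cells the log2 change from day 0 was -0.40 (SE 0.26) on day 1, -0.17 (SE 0.26) on day 3 and -0.44 (SE 0.26) on day 7, with edgeR adjusted p = 0.205, 0.594 and 0.154. In Krt8-/- cells it was 0.01 (SE 0.29), -0.48 (SE 0.29) and -0.40 (SE 0.29), with edgeR adjusted p = 0.984, 0.179 and 0.242. A fit of only the 6 libraries compared put the change on day 7 in Krt8+/+ cells past 0.05 (-0.45, edgeR adjusted p = 0.0492). Over the same days Krt8 in Krt8+/+ cells rose by 2.62 to 2.95 on the log2 scale.

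Of 28 BAF subunit genes listed, 27 were tested, and the 26 other than Smarcd1 were compared between genotypes in the mean over the days. The count past 0.05 was 0 by edgeR and 0 by DESeq2, with 0 at an unadjusted p under 0.05. Their differences ran from -0.45 to 0.52 with a median of -0.03, against 0.00 over all genes tested. Smarcd2 and Smarcd3, the paralogs that encode BAF60B and BAF60C, differed by 0.08 (SE 0.04) and 0.09 (SE 0.09). Neither difference passed 0.05. On single days, Smarcd2 did not overlap between genotypes on day 3 (0.23, SE 0.09) and day 7 (0.11, SE 0.09). Neither day passed 0.05, and 11% and 5.54% of all genes tested did not overlap on those days.

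The paralogs did change in culture. Smarcd3, compared with day 0, was lower on day 1 and higher on day 7, by -1.03 (SE 0.19) and 1.43 (SE 0.19) in Krt8+/+ cells and by -0.77 (SE 0.19) and 1.37 (SE 0.18) in Krt8-/- cells, with edgeR adjusted p from 1.38e-06 to 0.00189. Smarcd2 was lower on day 7, by -0.54 (SE 0.09, edgeR adjusted p = 3.11e-05) in Krt8+/+ and -0.32 (SE 0.09, edgeR adjusted p = 0.00431) in Krt8-/- cells. In Krt8+/+ cells it was also lower on days 1 and 3 (-0.34 and -0.32, edgeR adjusted p = 0.00363 and 0.00501). Krt8-/- cells did not pass 0.05 on those days (-0.14 and 0.02, edgeR adjusted p = 0.202 and 0.900). The changes of Smarcd2 were not compared between genotypes by a test. Of the 27 subunit genes tested, 4 were higher and 16 lower past 0.05 on day 1 in Krt8+/+ cells, 3 and 16 on day 3, and 3 and 16 on day 7. The numbers in Krt8-/- cells were 3 and 15, 4 and 11, and 4 and 14. Of all genes tested, 26.2%, 26.1% and 28.6% were higher and 28.5%, 27.8% and 30.2% lower on days 1, 3 and 7 in Krt8+/+ cells. The shares in Krt8-/- cells were 23.7%, 25.4% and 28.6% higher and 26.9%, 26.6% and 29.9% lower.

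Pou6f1 was lower in Krt8-/- AECs in each of the 12 pairs of libraries from the same isolation and day. In Krt8+/+ cells its level in the 3 isolations was 35.0, 25.1 and 32.7 CPM on day 0, 8.30, 2.34 and 6.59 CPM on day 1, 4.85, 4.21 and 5.39 CPM on day 3, and 4.90, 5.72 and 6.03 CPM on day 7. Its level in Krt8-/- cells was 19.5, 17.5 and 14.4 CPM on day 0, 5.38, 1.95 and 3.11 CPM on day 1, 1.58, 1.63 and 1.27 CPM on day 3, and 2.69, 2.18 and 1.98 CPM on day 7. The genotypes did not overlap on days 0, 3 and 7. They overlapped on day 1, when the library of isolation 2 was the lowest of its group in both genotypes. From day 1 on, a Krt8-/- library held only 18 to 60 counts of Pou6f1.

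The Krt8-/- mean was 55.4%, 60.6%, 30.9% and 41.1% of the Krt8+/+ mean on days 0, 1, 3 and 7. The log2 differences were -0.85 (SE 0.33), -0.74 (SE 0.35), -1.69 (SE 0.37) and -1.28 (SE 0.36), and -1.14 (SE 0.18) in the mean over the days. Within isolations 1, 2 and 3 the mean was -0.96, -0.85 and -1.43, and without isolation 1 the fit gave -1.23. The direction was the same in every isolation, with a spread of 0.31 (SD, n = 3) between them.

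Pou6f1 fell in culture in both genotypes, with most of the fall by day 1. In Krt8+/+ cells the log2 change from day 0 was -2.42 (SE 0.35) on day 1, -2.68 (SE 0.36) on day 3 and -2.48 (SE 0.35) on day 7, with edgeR adjusted p from 2.40e-06 to 9.15e-06. The change in Krt8-/- cells was -2.31 (SE 0.36), -3.51 (SE 0.38) and -2.90 (SE 0.37), with edgeR adjusted p from 2.14e-07 to 2.16e-05. All 6 calls remained in each of the alternatives run. In bulk RNA, fewer cells of a type and less RNA per cell cannot be told apart, here and for every fall in culture below. Of 15 POU family genes listed, 4 were tested (Pou2f1, Pou2f2, Pou3f1 and Pou6f1). Of the 3 other than Pou6f1, the count past 0.05 between genotypes in the mean over the days was 0 by edgeR and by DESeq2, and 0 at an unadjusted p under 0.05. Pou2f1 differed by -0.13 (SE 0.13).

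**Figure D1:**
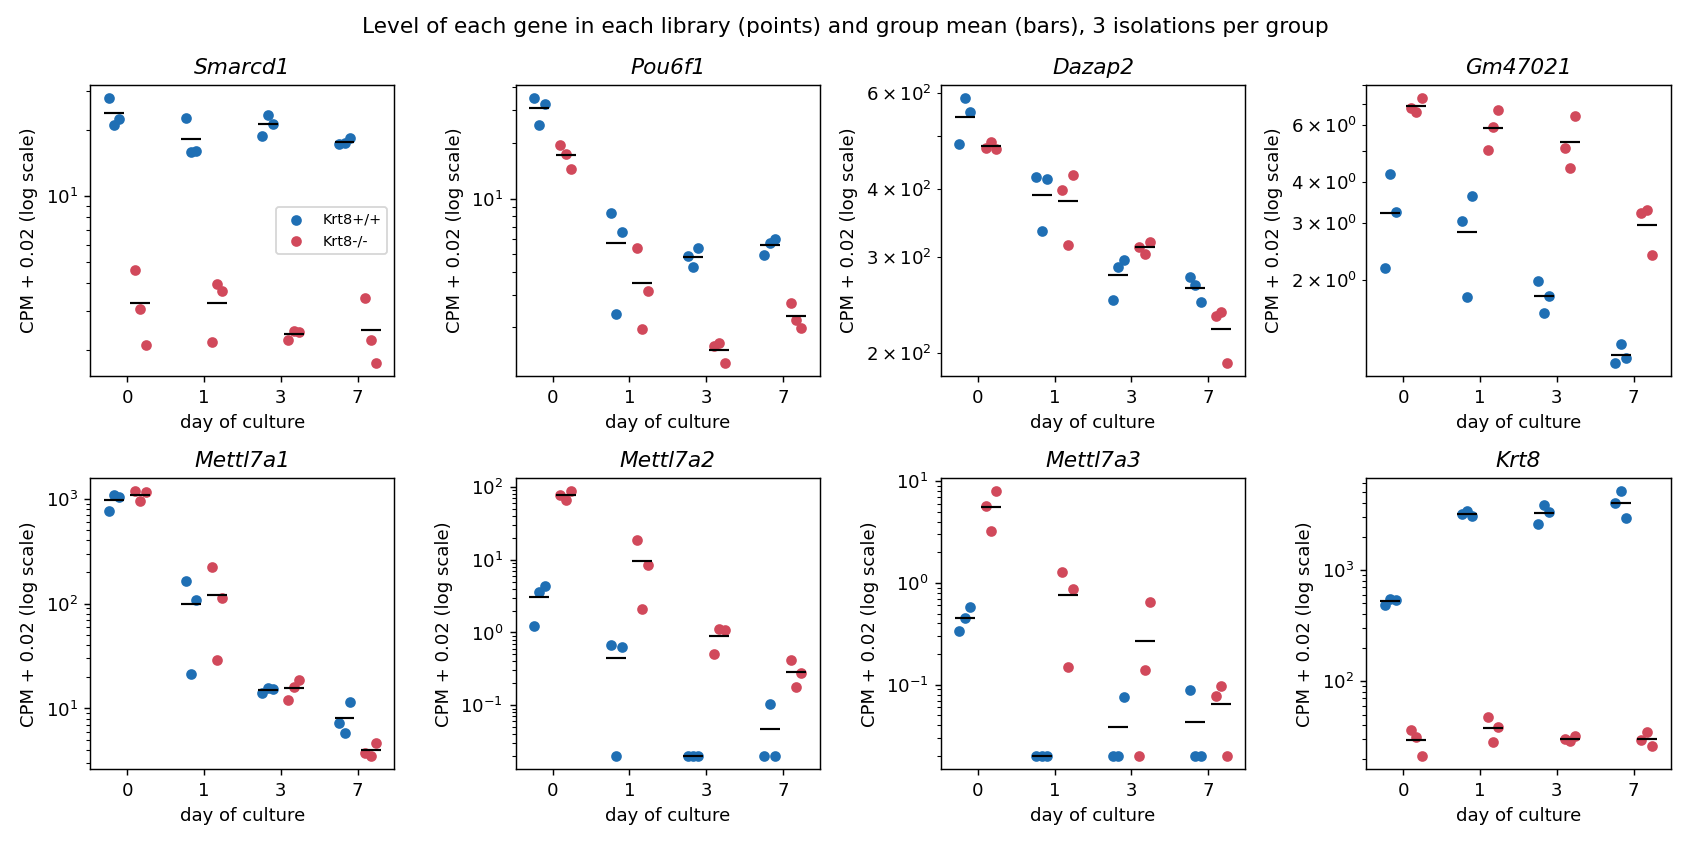
Level of the 7 listed genes and Krt8 in each library (points, CPM plus 0.02 on a log scale) by day of culture, with 3 isolations per group and the group mean as a bar, blue for Krt8+/+ and red for Krt8-/-. The genotypes are apart on every day for Smarcd1 and Gm47021, overlap for Dazap2 on days 0 and 1 and for Mettl7a1 on days 0, 1 and 3, and points on the bottom line of the Mettl7a2 and Mettl7a3 panels are libraries with 0 counts.

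Mettl7a1, which took most counts of its family, overlapped between the genotypes on days 0, 1 and 3. In Krt8+/+ cells it was at 772, 1093 and 1029 CPM on day 0 and 165, 21.2 and 108 CPM on day 1. Krt8-/- cells had it at 1174, 955 and 1155 CPM on day 0 and 222, 28.9 and 113 CPM on day 1. Isolation 2 was low on day 1 in both genotypes, and its AEC2 markers were low in the same libraries, at 14982 and 14161 CPM in sum against 62968 to 87219 CPM in the other 4 libraries of that day. On day 3 Krt8+/+ libraries had 14 to 15.6 CPM and Krt8-/- libraries 11.9 to 18.7 CPM. Day 7 was the only day without overlap, when Krt8+/+ libraries had 5.81 to 11.5 CPM and Krt8-/- libraries 3.50 to 4.66 CPM.

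The log2 difference of Mettl7a1 between genotypes was 0.18 (SE 0.52) on day 0, 0.30 (SE 0.53) on day 1, 0.05 (SE 0.55) on day 3 and -1.05 (SE 0.61) on day 7, and -0.13 (SE 0.28) in the mean, or -0.20 without isolation 1. The fall in culture was larger than any of these. In Krt8+/+ cells Mettl7a1 changed by -3.30 (SE 0.57) on day 1, -6.01 (SE 0.66) on day 3 and -6.87 (SE 0.69) on day 7, with edgeR adjusted p from 4.23e-08 to 7.11e-05. The change in Krt8-/- cells was -3.18 (SE 0.57), -6.14 (SE 0.66) and -8.11 (SE 0.73), with edgeR adjusted p from 1.03e-08 to 1.08e-04.

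Mettl7a2 was assigned far more reads in Krt8-/- than in Krt8+/+ cells. The 3 Krt8+/+ isolations held 19, 33 and 39 counts on day 0, 9, 0 and 9 on day 1, 0, 0 and 0 on day 3, and 0, 1 and 0 on day 7. The Krt8-/- isolations held 1090, 648 and 1127 counts on day 0, 208, 32 and 109 on day 1, 7, 18 and 15 on day 3, and 7, 2 and 4 on day 7. Each Krt8-/- library was above every Krt8+/+ library of its day. In CPM the day 0 libraries were at 1.21 to 4.32 in Krt8+/+ and at 65.6 to 87.1 in Krt8-/- cells.

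From the summed counts of a group over its summed library size, Mettl7a2 was 29.1-fold higher in Krt8-/- cells on day 0 (95% exact interval 23.7 to 36.3) and 19.8-fold higher on day 1 (12.4 to 33.9). On day 3 it was at least 14.2-fold higher, taking a floor of 3 counts over the Krt8+/+ group, which had none. With 13 counts against 1 on day 7, the ratio was 11.8, with an interval from 1.78 to 502. These intervals and floors cover counting error only. The fitted mean over the days was 4.72 (SE 0.60) on the log2 scale and 4.33 without isolation 1, but it rests on a group without counts and is no bound.

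Mettl7a3 had the same direction at lower counts. There were 5, 4 and 5 counts in the Krt8+/+ isolations on day 0. The 3 isolations together had 0 counts on day 1 and 1 count each on days 3 and 7. There were 78, 32 and 102 counts in the Krt8-/- isolations on day 0, 14, 2 and 11 on day 1, 0, 2 and 9 on day 3, and 1, 1 and 0 on day 7. The Krt8-/- group was 14.0-fold higher on day 0 (8.17 to 26.1) and at least 9.20-fold higher on day 1. The ratio on day 3 was 11.7, from 11 counts against 1, with an interval from 1.70 to 504. On day 7 both groups were under the floor, and no fold is given. The fitted mean over the days, again no bound, was 3.46 (SE 0.79) on the log2 scale and 3.69 without isolation 1.

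As a share of the counts of the 3 Mettl7a genes, which sets aside how abundant the family was, Mettl7a2 took 0.299% in Krt8+/+ cells over all days (110 of 36823 counts, 95% exact binomial interval 0.246% to 0.360%) and 6.60% in Krt8-/- cells (3267 of 49468, 6.39% to 6.83%). Per library the share was 0% to 1.41% in Krt8+/+ and 3.87% to 9.59% in Krt8-/- cells, without overlap. It stayed within 5.31% and 7.36% of the pooled counts of each Krt8-/- group from day 0 to day 7, while the counts behind it fell from 2865 to 13. Mettl7a3 took 0.0435% in Krt8+/+ and 0.509% in Krt8-/- cells. The intervals of pooled counts cover counting error only, and the Krt8+/+ libraries of day 0 alone ran from 0.156% to 0.418% for Mettl7a2. These are shares of counts as deposited, not of transcripts.

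When the counts of the 3 Mettl7a genes were summed, the genotypes overlapped on days 0, 1 and 3. The sum was 968 ± 172 CPM (SD, n = 3) in Krt8+/+ and 1177 ± 133 CPM in Krt8-/- cells on day 0, 98.6 ± 72.9 and 132 ± 105 CPM on day 1, 15 ± 0.842 and 16.6 ± 4.02 CPM on day 3, and 8.24 ± 2.89 and 4.27 ± 0.593 CPM on day 7. The log2 difference of the sum was -0.03 (SE 0.27) in the mean over the days. This mean was smaller than its standard error, but it averages days of opposite direction and does not show that the sums were equal. The Krt8-/- mean was the higher on days 0, 1 and 3. On day 7 Krt8-/- libraries were lower without overlap, at 3.74 to 4.91 CPM against 5.89 to 11.5 CPM. Mettl7a2 and Mettl7a3 took a larger share of the sum in Krt8-/- cells. Mettl7b, the remaining family member, had 0 to 6 counts per library and was not tested. Methig1, which overlaps Mettl7a2 on the same strand, had at most 6 counts in any library.

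Mettl7a2 and Mettl7a3 passed the filter on low counts only through groups in which they were high. All 3 libraries were at or above its CPM minimum of 0.756 for Mettl7a2 in 3 groups (day 0 of both genotypes and day 1 of Krt8-/- cells) and for Mettl7a3 in 1 group (day 0 of Krt8-/- cells), whereas the other 5 genes were in all 8 groups. A fall from those groups was favoured by the filter, so their levels in culture are given with counting intervals and no test. In Krt8-/- cells, Mettl7a2 was 8.81-fold lower than on day 0 by day 1 (7.88 to 9.88), 88.5-fold lower by day 3 (64.9 to 124) and 276-fold lower by day 7 (161 to 519). Mettl7a3 was 8.43-fold lower by day 1 (5.63 to 13.1) and 23.8-fold lower by day 3 (13 to 48.4). In Krt8+/+ cells Mettl7a2 was 6.00-fold lower by day 1 (3.59 to 10.6) and at least 43.1-fold lower by day 3. These intervals cover counting error only, and the isolations spread more widely. In Krt8-/- isolations 1, 2 and 3, Mettl7a2 was at 78.4, 65.6 and 87.1 CPM on day 0. On day 1 it was at 18.7, 2.07 and 8.49 CPM in the same isolations.

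**Figure D2:**
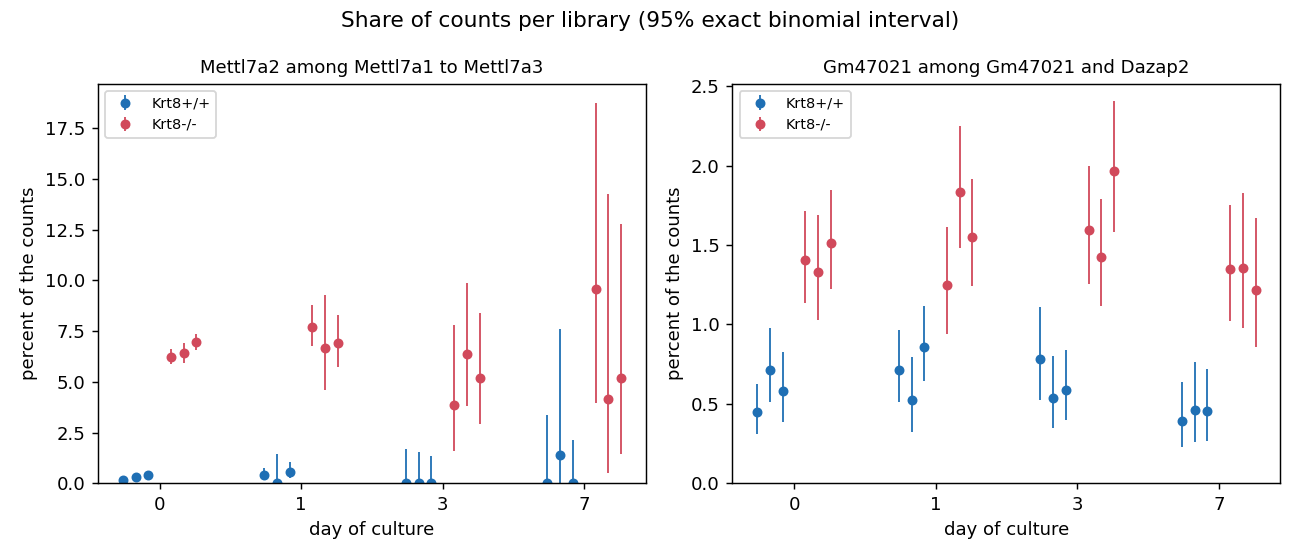
Left, share of the Mettl7a1 to Mettl7a3 counts that fell on Mettl7a2, and right, share of the Gm47021 and Dazap2 counts that fell on Gm47021, in percent per library by day of culture, with 95% exact binomial intervals. In both panels every Krt8-/- library lies above every Krt8+/+ library, and the intervals for Mettl7a2 widen by day 7 because few counts were left.

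Dazap2 differed between the genotypes by -0.25 to 0.17 on the log2 scale, depending on the day, and Gm47021, its pseudogene copy, was higher in Krt8-/- cells. Dazap2 was at 483, 586 and 552 CPM on day 0 and 275, 267 and 248 CPM on day 7 in Krt8+/+ cells. It was at 475, 488 and 473 CPM on day 0 and 234, 238 and 192 CPM on day 7 in Krt8-/- cells. On days 1 and 3 Krt8+/+ libraries had 250 to 420 CPM and Krt8-/- libraries 304 to 424 CPM. The genotypes overlapped on days 0 and 1. They did not on day 3, when Krt8-/- libraries were the higher, nor on day 7, when they were the lower.

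For Dazap2 the log2 difference was -0.17, -0.04, 0.17 and -0.25 on days 0, 1, 3 and 7, each with an SE of 0.13, and -0.08 (SE 0.06) in the mean over the days, or -0.11 without isolation 1. Dazap2 fell in culture in both genotypes. In Krt8+/+ cells the change from day 0 was -0.47 (SE 0.13, edgeR adjusted p = 0.00387) on day 1, -0.96 (SE 0.13, 2.48e-06) on day 3 and -1.04 (SE 0.13, 7.17e-07) on day 7. In Krt8-/- cells it was -0.34 (SE 0.13, edgeR adjusted p = 0.0323) on day 1, -0.62 (SE 0.13, 3.74e-04) on day 3 and -1.11 (SE 0.13, 2.77e-07) on day 7. The calls on day 1 did not hold without isolation 2 (-0.23 and -0.12, edgeR adjusted p = 0.243 and 0.568), and that in Krt8-/- cells was also lost without isolation 1 (0.104) or isolation 3 (0.0618) and with DESeq2's size factors (0.0590).

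Gm47021 was at 2.16, 4.22 and 3.21 CPM on day 0, 3.01, 1.76 and 3.60 CPM on day 1, 1.97, 1.56 and 1.76 CPM on day 3, and 1.09, 1.24 and 1.13 CPM on day 7 in Krt8+/+ cells. It was at 6.76, 6.58 and 7.26 CPM on day 0, 5.02, 5.90 and 6.69 CPM on day 1, 5.07, 4.40 and 6.41 CPM on day 3, and 3.20, 3.27 and 2.36 CPM on day 7 in Krt8-/- cells. Every Krt8-/- library was above every Krt8+/+ library of its day, by factors of 2.15, 2.11, 3.01 and 2.55 between the means. The log2 differences were 1.11 (SE 0.29), 1.07 (SE 0.29), 1.58 (SE 0.29) and 1.35 (SE 0.31), and 1.28 (SE 0.15) in the mean, or 1.26 without isolation 1. Within isolations 1, 2 and 3 the mean was 1.26, 1.25 and 1.19 (SD 0.0363, n = 3). Single days within the isolations ran from 0.62 to 1.78, so the closeness of the 3 means does not measure precision.

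Set against Dazap2, Gm47021 took 0.596% of their joint counts in Krt8+/+ cells (350 of 58684, 95% exact binomial interval 0.536% to 0.662%) and 1.49% in Krt8-/- cells (859 of 57467, 1.40% to 1.60%). The share was 0.394% to 0.856% per Krt8+/+ library and 1.21% to 1.97% per Krt8-/- library. These ranges are wider than the pooled intervals, which cover counting error only. Gm47021 had 15 to 94 counts per library where Dazap2 had 3009 to 7590. Gm47021 was lower on day 7 than on day 0 in both genotypes, by -1.45 (SE 0.31, edgeR adjusted p = 4.01e-04) in Krt8+/+ and -1.22 (SE 0.29, edgeR adjusted p = 0.00108) in Krt8-/- cells. On day 3 it was past 0.05 in Krt8+/+ cells (-0.85, SE 0.30, edgeR adjusted p = 0.0209), a call lost without isolation 2 (0.383) or isolation 3 (0.106), and not in Krt8-/- cells (-0.38, SE 0.28, edgeR adjusted p = 0.277). The changes from day 0 in the 2 genotypes were not compared by a test.

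**Figure D3:**
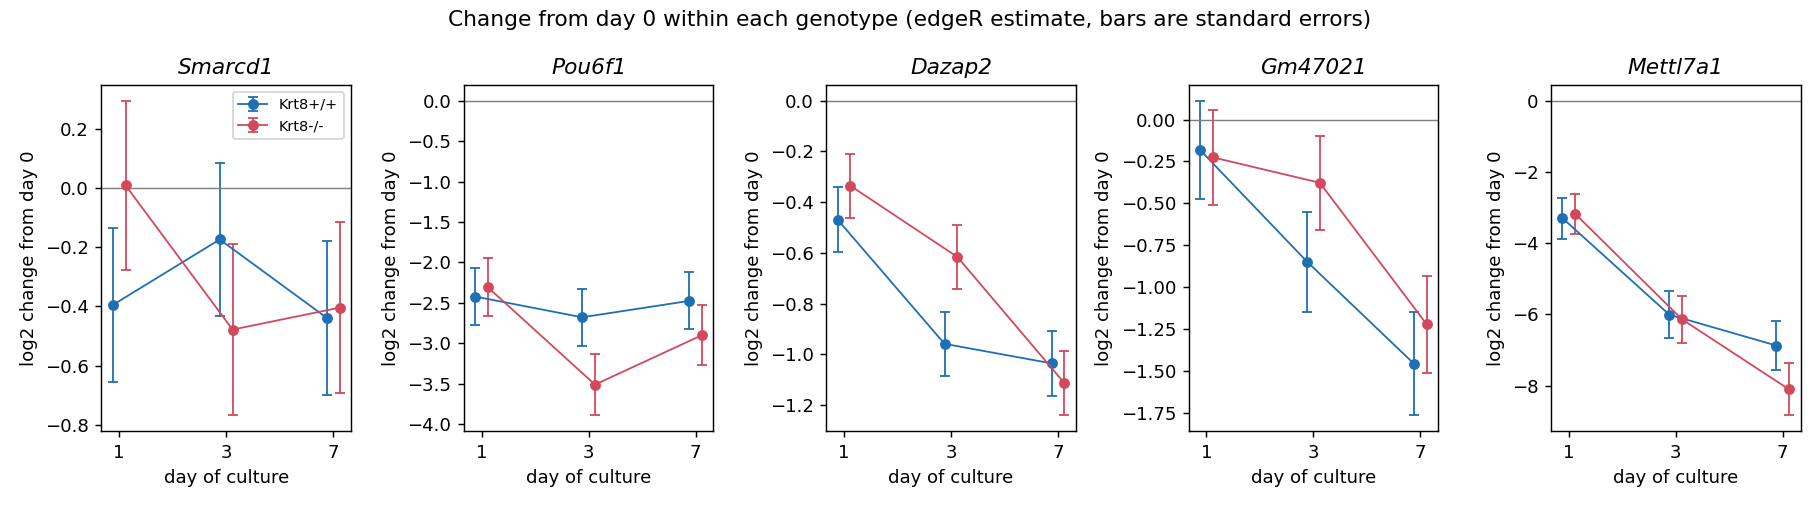
Log2 change from day 0 of 5 listed genes on days 1, 3 and 7 of culture within each genotype, as edgeR estimates with standard errors (n = 3 isolations per group, blue Krt8+/+, red Krt8-/-, vertical scales differ). Mettl7a1 falls the most, to -6.87 and -8.11 on day 7, while the Smarcd1 estimates lie between -0.48 and 0.01.

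Of the 5 listed genes that were above the filter's minimum in all groups, 3, 4 and 4 were lower past 0.05 on days 1, 3 and 7 in Krt8+/+ cells, beside 28.5%, 27.8% and 30.2% of all genes tested. The numbers in Krt8-/- cells were 3, 3 and 4, beside 26.9%, 26.6% and 29.9%. None of the 5 was higher past 0.05 in these comparisons. Their median change was -0.47, -0.96 and -1.45 in Krt8+/+ cells and -0.34, -0.62 and -1.22 in Krt8-/- cells, against -0.01 to 0.00 over all genes tested. Pou6f1, Dazap2 and Mettl7a1 made up the 3, and Gm47021 was the fourth.

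Between genotypes, Smarcd1 and Mettl7a2 were past 0.05 on day 0, where 0.0277% of all genes tested were, and Smarcd1 was on days 1, 3 and 7, where 0.0166% were on each day. In the mean over the days 4 listed genes were (Smarcd1, Pou6f1, Mettl7a2 and Gm47021), beside 0.0665% of all genes (12 of 18046). Since these genes were chosen for that contrast, the counts are printed for completeness. Of all genes tested, the libraries of the genotypes did not overlap for 6.88%, 5.79%, 11% and 5.54% on days 0, 1, 3 and 7. The remaining genes past 0.05 were Krt8, 3 more on chromosome 15 (Prr13, Aqp5 and Rabl2) and 4 elsewhere, Krt8-ps, Eno1b, Gm4735 and Gm5855. Of these, Rabl2 and the last 3 are named because the count was small, after their values were seen.

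The genes around Krt8 were then counted without the listed genes and Krt8. Within 5 Mb, 135 genes were tested, and 2 were past 0.05 in the mean over the days (1.48%). Prr13, a gene for a proline-rich protein, lies 0.455 Mb from Krt8 and was higher in Krt8-/- cells by 0.51 (SE 0.08, edgeR adjusted p = 0.00400) on the log2 scale. The Krt8-/- libraries were above the Krt8+/+ libraries on every day. Aqp5, a water channel of AEC1s, lies 2.40 Mb from Krt8 and was higher by 0.78 (SE 0.13, edgeR adjusted p = 0.0104), without overlap on days 0, 1 and 3. Both lost the call when any single isolation was left out, with edgeR adjusted p of 0.176 to 0.786 for Prr13 and 0.0587 to 0.951 for Aqp5, and estimates of 0.45 to 0.62 and 0.68 to 0.96. Aqp5 was lower on day 7 than on day 0 in both genotypes, by -2.77 (SE 0.27, edgeR adjusted p = 3.59e-08) in Krt8+/+ and -3.18 (SE 0.28, edgeR adjusted p = 6.94e-09) in Krt8-/- cells.

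An unadjusted p under 0.05 was reached by 23 of the 135 genes (17%), 10 of them higher and 13 lower in Krt8-/- cells, by 3.67% of the 17311 genes on other chromosomes and by 3.83% of all genes tested. The share was 18.6% of 86 genes within 2.5 Mb, 14.3% of 49 genes from 2.5 to 5 Mb, 17.4% of 23 genes from 5 to 10 Mb, and 4.17% of 551 genes farther away on chromosome 15. The median size of the log2 difference was 0.17 within 5 Mb and 0.09 on other chromosomes. Neighbouring genes are not independent, and the difference between these shares was not tested. Of the listed genes on chromosome 15, Smarcd1 and Pou6f1 were thus lower and Mettl7a2 and Mettl7a3 higher in Krt8-/- cells, at sites 1.40 to 2.28 Mb from the targeted gene.

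**Figure D4:**
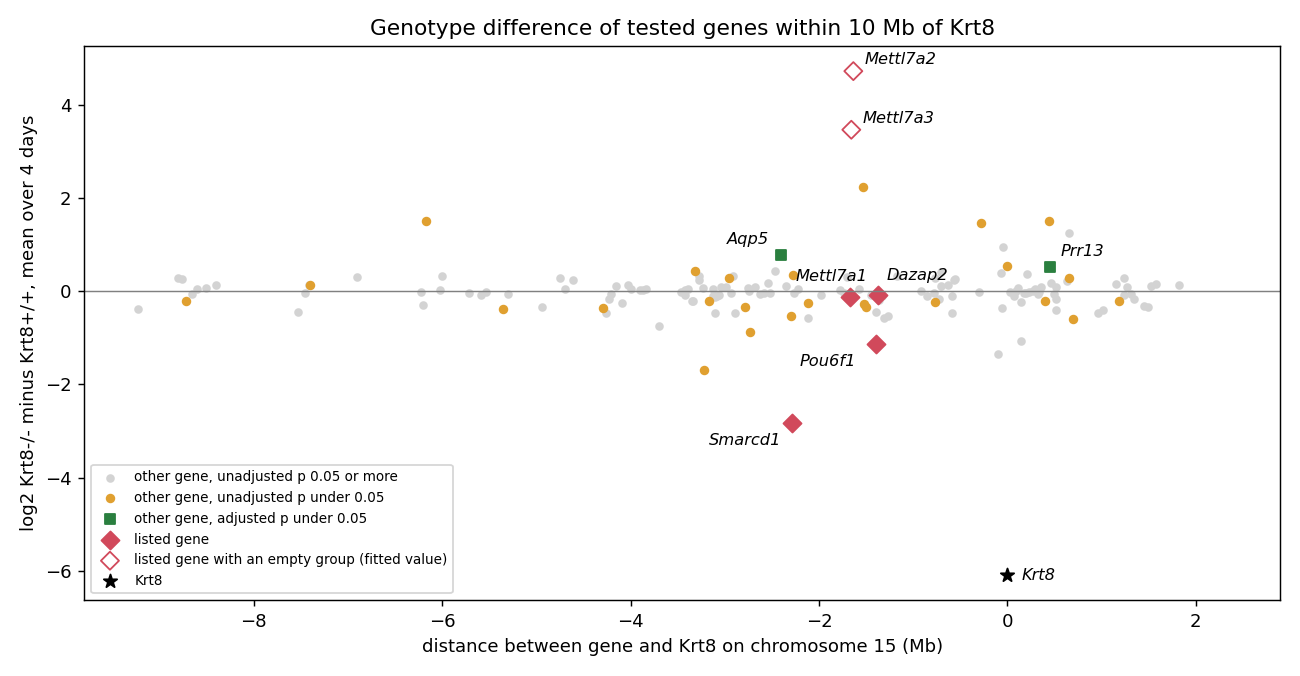
Log2 difference of Krt8-/- minus Krt8+/+ cells in the mean over the 4 days against distance from Krt8 in Mb, for each tested gene within 10 Mb on chromosome 15, with listed genes as diamonds, Krt8 as a star and other genes as dots or squares by p value. Most genes lie near 0, Smarcd1 is at -2.84, Pou6f1 at -1.14, and open diamonds mark Mettl7a2 and Mettl7a3, whose fitted values rest on groups without counts.

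None of the genes next to the listed ones passed the threshold. The closest tested gene on each side of a listed gene was taken, which gave 9 genes not on the list. By edgeR 0 of these 9 were past 0.05 between genotypes in the mean over the days, 0 were by DESeq2, and 2 had an unadjusted p under 0.05. These 2 flank Smarcd1. Asic1, 0.999 kb before it, differed by -0.53 (SE 0.22) at a level of 1.76 CPM in Krt8+/+ and 1.24 CPM in Krt8-/- cells, and Gpd1, 3.52 kb after it, differed by 0.34 (SE 0.12). The tested gene closest to Pou6f1 was Gm49492, 0.22 kb after it, with a fitted difference of -0.46. No usable standard error was obtained for Gm49492, so its difference is uncertain. Its mean CPM was low, 1.84 over wild-type libraries and 1.05 over knockout libraries. Tfcp2, 23.3 kb before Pou6f1, differed by -0.08 (SE 0.11), Smagp, next to Dazap2, by -0.19 (SE 0.14), and Slc11a2, next to Mettl7a2, by 0.04 (SE 0.07). Mtr, 1.68 kb from Gm47021 on chromosome 13, differed by -0.04 (SE 0.12).

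Some annotated genes overlap the listed ones on the opposite strand, and the sources used here do not say whether counting used strand. Gm17349, Gm34939 and Gm17241 overlap Smarcd1 and had at most 4 counts in any library. Gm27209 overlaps Pou6f1 and had at most 4. Their counts were small beside those of Smarcd1 and Pou6f1 in either genotype. Reads of the opposite strand that were counted under Smarcd1 or Pou6f1 would not show in these counts, and this was not tested.

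The genes whose pattern was most like that of each listed gene were found from Pearson's r of log2 CPM over the 24 libraries, which share isolations and days. Krt8 and the listed genes were left out of this ranking. For Smarcd1 the nearest was Krt8-ps, a processed pseudogene named for Krt8, with r = 0.90, and for the next gene ranked r was 0.72. Between genotypes Krt8-ps differed much as Krt8 did, by -5.94 (SE 0.17) and -6.09 (SE 0.13) on the log2 scale in the mean over the days. For Pou6f1 the nearest was Greb1 (0.93), for Dazap2 it was Rasef (0.97) and for Mettl7a1 it was Car8 (0.99). The nearest to both Mettl7a2 and Mettl7a3 was Reg3g, with 0.91 and 0.89, and the third nearest to Mettl7a2 was Aqp5 (0.86), a gene of the same chromosome. Gm47021 was most like Rabl2 (0.79), 12.4 Mb from Krt8 on chromosome 15. Among the listed genes, r was 0.95 between Dazap2 and Mettl7a1, 0.94 between Mettl7a2 and Mettl7a3, 0.82 between Gm47021 and Mettl7a2, and -0.68 between Smarcd1 and Gm47021. The last 2 pair genes that were chosen for their genotype differences. Mettl7a2 and Mettl7a3 can share reads, and both were higher in Krt8-/- cells. Krt8-ps, Aqp5 and Rabl2 also passed the threshold between genotypes in the mean over the days. Their r with Smarcd1, Mettl7a2 and Gm47021 is thus not independent of the genotype differences by which those listed genes were chosen.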

How the data were processed

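RNA-Seq of AEC2s was used, in 24 libraries. The authors deposited whole-number read counts per Ensembl gene, without normalization or pooling. The labels name cutadapt 2.3, STAR 2.7.8a, RSEM 1.3.3 and build GRCm38, without role or order. Neither the assignment of shared reads nor the strand setting is given in the sources used here. Of 55421 genes, 55154 had a symbol in GENCODE M21.

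In R 4.3.3, genes with low counts were removed by filterByExpr. A gene needed the CPM of 10 counts in a library of median size in at least 3 libraries, and 15 counts in all. Libraries were scaled with TMM and fitted in 1 edgeR 4.0.16 quasi-likelihood model with 8 groups (Benjamini-Hochberg over 18046 genes, threshold 0.05). DESeq2 1.42.0 was an alternative. Ratios of low counts have exact conditional 95% intervals. Sequences, alignments (Biopython) and stretches of 50 bases came from GENCODE M21 transcripts. The procedure was tested on simulated counts. Besides the listed genes, those named were flanking genes, called genes within 5 Mb, the 3 most correlated genes other than Krt8, and lists of BAF, POU, Mettl7 and marker genes. The members and lists were chosen with earlier results of these data known.

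Replicate numbers stand for isolation dates shared by all groups, so they pair the libraries. The deviations from group means of libraries with the same number correlated at 0.0573 to 0.548 between genotypes and 0.0295 to 0.365 between days.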

Additional observations from a re-analysis of the deposited data

Results flagged for a closer look

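The estimated genotype difference of Dazap2 changed sign with day, with an SE of 0.13 on each day. All 3 isolations had Krt8-/- below Krt8+/+ on day 0 (-0.17 on the log2 scale) and day 7 (-0.25), and above it on day 3 (0.17). For Mettl7a1, all 3 isolations had Krt8-/- above Krt8+/+ on day 1 (0.30, SE 0.53) and below it on day 7 (-1.05, SE 0.61). No single-day difference of these 2 genes was past 0.05. The difference between the days was not tested in either gene.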

How the results depend on the processing

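Isolation as a replicate block changed none of the 42 tests of a listed gene on a culture day, of which 33 were past 0.05. These tests include Mettl7a2 and Mettl7a3, whose fall the filter favoured. The mean genotype differences with the block were -2.84 for Smarcd1, -1.14 for Pou6f1 and 1.28 for Gm47021. With the block, 16 genes were past 0.05 between genotypes in the mean over the days, against 12 without it. The count was 25 with the DESeq2 test, 16 without a filter, and 4, 8 and 5 without isolations 1, 2 and 3, with 5, 4, 1, 4 and 1 listed genes among them. Near Krt8 the count of other genes was 5 with the DESeq2 test, where Calcoco1, Prkag1 and Rpap3 were added, and 0 to 1 when an isolation was left out (Calcoco1 without isolation 2). Listed genes past 0.05 on day 1 were 3 to 4 in Krt8-/- cells when an isolation was left out (3 without isolation 2), 3 to 5 in Krt8+/+ cells (3 without isolation 3), and 3 in Krt8+/+ cells in a fit of the 6 libraries compared.

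With 1 isolation left out, 8 of the 33 calls were lost in at least 1 fit, and the mean genotype difference ran from 4.33 to 5.27 for Mettl7a2. It was -0.03 for the summed Mettl7a genes. The sign turned for Gm47021 on day 1 in Krt8+/+ cells without isolation 2 (0.39, lowest -0.47), for Smarcd1 on day 1 in Krt8-/- cells without isolation 2 (-0.10) or 3 (-0.32, highest 0.58), and on day 3 in Krt8+/+ cells without isolation 1 (0.03, lowest -0.24). None of these was past 0.05, and the cause was not tested. In the fit of 6 libraries 3 of the 42 tests had no value because the gene did not pass the filter.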
